A study of Homo sapiens with 4 samples.

Results

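Epidermal growth factor (EGF) family signaling was followed in RPE-1 cells through 10 genes, the ligand genes EREG, AREG, HBEGF, TGFA, BTC, EPGN and NRG1 and the receptor genes EGFR, ERBB2 and ERBB3. The genes were chosen by name, as members of this family, with earlier results of these data known. All 10 were found by their NCBI Gene identifiers among the 23459 genes listed. hTERT RPE-1 is a wild type human line from the retinal pigment epithelium, immortalized with telomerase. The cells were held for 48 h in medium with 0.1% fetal bovine serum and then given 200 μM merbarone, a drug that blocks the catalytic cycle of type II topoisomerases (TOP2), for 4 h (2 libraries) or 8 h (2 libraries). The study describes the 2 libraries of a time as biological replicates. Every library thus comes from starved and treated cells of a single line, untreated cells were not analysed here, and a longer exposure cannot be told apart from a longer stay in low serum.

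Ligands of this family are made as membrane-bound precursors, which proteases such as ADAM17 cut to release a soluble form. They bind receptor tyrosine kinases that work in pairs and pass the signal to the RAS-MAPK and PI3K-AKT cascades. AREG, TGFA, EPGN and EGF itself bind EGFR, HBEGF, BTC and EREG bind EGFR and ERBB4, and NRG1 (neuregulin 1) binds ERBB3 and ERBB4. ERBB2 has no known ligand and serves as the partner of the others, and ERBB3 has a kinase domain of low activity. In epithelia, including the retinal pigment epithelium, the pathway is known for its part in growth, migration and wound closure.

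The libraries held between 8064450 and 10324697 reads counted on genes. Genes with a CPM (counts scaled to a common library total) above 1 in at least 2 libraries were retained (12559), and counts were scaled by TMM, which corrects for library composition. Of the pigment epithelium markers, the transcription factor genes MITF and OTX2 passed this filter, with normalized counts of 723 to 887 and 153 to 197, and so did PMEL, with 6.35 to 14.9. The other 7, including RPE65, BEST1 and RLBP1, did not pass, and TYR and RGR were listed at 0 throughout. Of the epithelial markers, KRT8 and KRT18 were abundant, while CDH1 and EPCAM had at most 1 count in a library. KRT18 fell (log2FC −0.51, edgeR adjusted p = 3.72e-05). All 5 mesenchymal markers passed the filter, and of these VIM and FN1 rose (log2FC 0.36 each, edgeR adjusted p = 0.000623 and 6.48e-05), COL1A1 fell (log2FC −0.80, edgeR adjusted p = 9.43e-06) and 2 did not pass the test. The adjusted p of VIM and FN1 went up to 0.145 and 0.103 under the other tests and scalings. The 5 leukocyte markers summed to at most 13.5 normalized counts in any library. Of the 5 endothelial markers only KDR passed the filter, with 70.9 and 61.6 at 4 h, then 36.8 and 34.8 at 8 h. This was a fall (log2FC −0.88, edgeR adjusted p = 0.00830), but its adjusted p went up to 0.0737 under the other tests, scalings and filters. With 1 library left out, the log2FC of KDR ran from −0.98 to −0.79. The part of these marker changes in the results below was not tested.

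The AREG gene, which encodes amphiregulin, was listed at 0 in all 4 libraries, and its sequence is shown first because it decides how that 0 can be read. The authors mapped reads of 75 bases to hg19 and discarded any read that fitted more than 1 place. On GRCh37, the assembly that hg19 represents, the gene stands at 2 places on chromosome 4, as AREG (chr4:75310853-75320722, plus strand) and as the copy annotated AREGB (chr4:75480629-75490486, plus strand). Their coding parts in the first coding exon read as follows, 5′ to 3′, with the base that differs in capitals.
AREG, chr4:75311063-75311123: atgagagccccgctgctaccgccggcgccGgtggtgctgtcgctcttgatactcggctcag
AREGB, chr4:75480839-75480899: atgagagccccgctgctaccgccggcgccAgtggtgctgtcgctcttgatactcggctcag
This substitution, G30A counted from 1 at the start codon and written from AREG to AREGB, was the only difference over the 756 coding bases of the 5 coding exons, an identity of 99.9%. A stretch of read length from coding exon 4 shows the usual case, in which the letters of both copies are the same and none is in capitals.
AREG, chr4:75316097-75316171, and AREGB, chr4:75485854-75485928: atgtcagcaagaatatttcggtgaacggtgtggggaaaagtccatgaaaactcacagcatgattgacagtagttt

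Of the 790 windows of 75 bases that lie inside an exon of the canonical AREG transcript, 32 (4.05%) occurred once in GRCh37, and all 32 were in the first exon. With up to 2 mismatches allowed, 0 windows occurred once. The mismatch setting of the aligner is not given in the sources used here. Reads of AREG therefore had almost no position at which they could be kept, the listed 0 does not measure its level, and AREG was left out of the comparisons of levels below. No other member had this limit. Between 98.0% and 100% of the windows of each of the other 9 occurred once in the exact search, and between 94.9% and 100% with up to 2 mismatches.

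**Figure D1:**
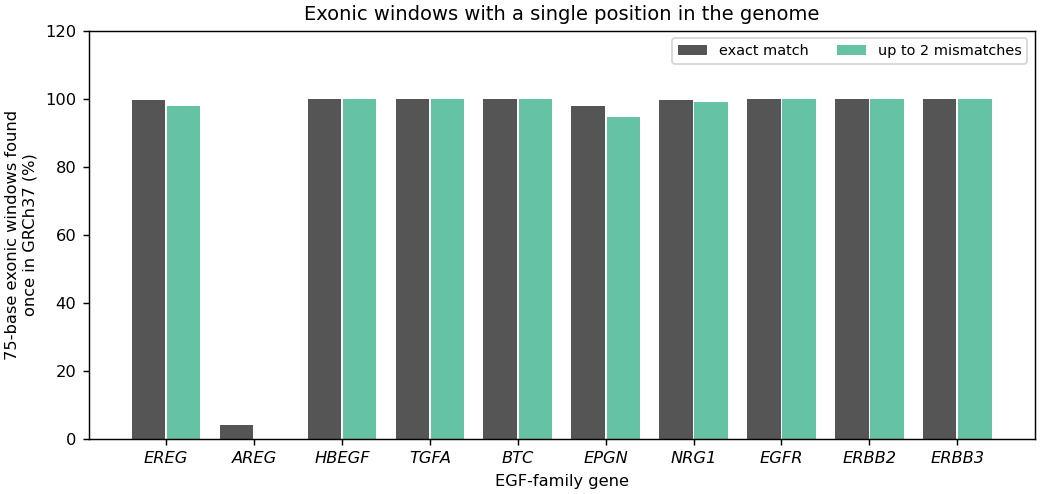
Share of the 75-base windows inside exons of each member's canonical transcript that occur once in GRCh37, in percent (y axis), by gene (x axis), for exact matches (dark bars) and with up to 2 mismatches (green bars). AREG stands at 4.05% and 0%, and the other 9 genes at 94.9% or more.

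Of the other 6 ligand genes, 3 lie close to AREG. EPGN (chr4:75174187-75182506, plus strand), EREG (chr4:75230862-75254466, plus strand) and BTC (chr4:75669969-75719733, minus strand) are its neighbors on chromosome 4. These 3 did not pass the filter. EREG, the gene of epiregulin, had 2 counts in replicate 1 at 4 h and 0 in the other 3 libraries. EPGN, the gene of epigen, had 0 counts in all 4 libraries. A count of 0 allows up to 3 counts, or 0.372 CPM in the smallest library and 0.291 CPM in the largest, and this limit covers counting error only. BTC, the gene of betacellulin, had 7 and 6 reads at 4 h, then 3 and 1 at 8 h. EREG, EPGN and BTC were thus at or near the limit of detection at this depth, with no test of a change.

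The ligand genes that passed the filter are HBEGF (chr5:139712428-139726188, minus strand), TGFA (chr2:70674416-70781325, minus strand) and NRG1 (chr8:31496738-32713184, plus strand). The receptor genes EGFR (chr7:55086710-55279321, plus strand), ERBB2 (chr17:37844167-37886679, plus strand) and ERBB3 (chr12:56470583-56497289, plus strand) all passed. For each of these 6 genes the values of the times did not overlap, with 8 h higher for 3 and lower for 3. The same held for 69.7% of all retained genes, 34.8% with 8 h higher and 34.9% with 8 h lower. The change was called at a Benjamini-Hochberg adjusted p below 0.05 in the quasi-likelihood test of edgeR over all retained genes. At this threshold 38.8% of the 12559 retained genes were called, 19.9% higher and 18.8% lower at 8 h. Among the 6 retained members, 1 rose and 0 fell. For a lower level at 8 h, 0 members had an unadjusted p below 0.05, and Limma-Voom and DESeq2 also called 0. With library size in place of TMM, and after a loess correction by abundance, HBEGF and ERBB2 were called lower (log2FC −0.27 to −0.25). With 2 libraries per time, an exact permutation test of a single gene cannot go below p = 0.333, so the adjusted p-values rest on the spread that edgeR shares across genes.

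**Figure D2:**
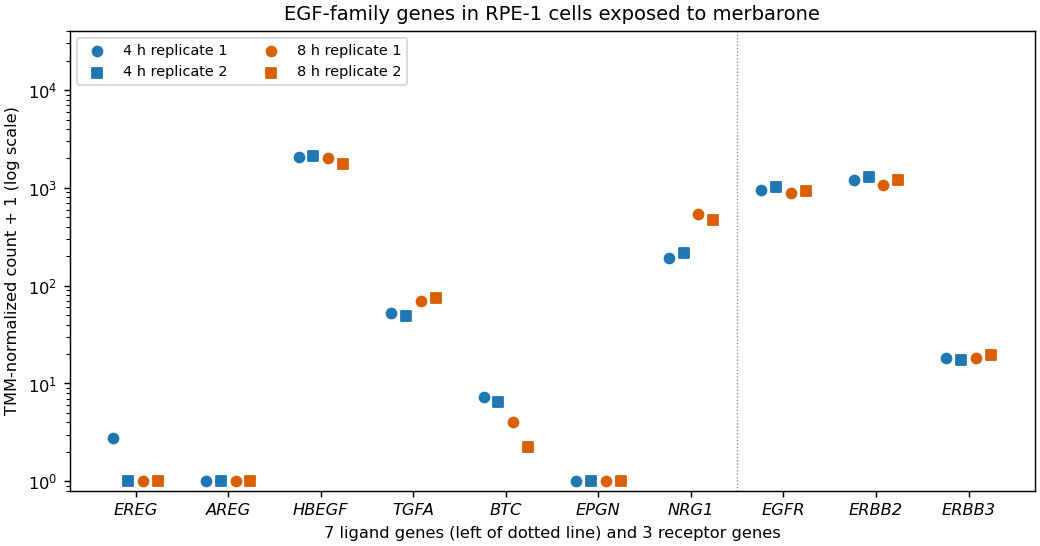
TMM-normalized count plus 1 on a log scale (y axis) of the 7 ligand and 3 receptor genes (x axis), with 1 point per library, blue at 4 h and orange at 8 h. NRG1 moved from 189 and 213 to 534 and 471, while HBEGF, EGFR and ERBB2 stayed between 894 and 2113 and EREG and EPGN lay at or near 0. AREG is drawn at its listed 0, which does not measure its level.

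NRG1 was the only member called in the edgeR test. At 4 h the TMM-normalized count of NRG1 was 189 in replicate 1 and 213 in replicate 2, and at 8 h it reached 534 and 471. Both 8 h values lay above both 4 h values by a wide margin compared with the gap between replicates. The mean went from 201 ± 16.8 to 502 ± 44.5 (SD, n = 2 each), a 2.50-fold rise (log2FC 1.32, standard error 0.12, edgeR adjusted p = 1.03e-07). The paper called a differentially expressed gene (DEG), treated against untreated, at an adjusted p below 0.05 and an absolute log2FC above 1. Here, at 8 h against 4 h, 5.33% of retained genes passed both thresholds, 1.45% upward and 3.88% downward. NRG1 was among the upward genes. Its log2FC ran from 1.23 to 1.41 with 1 library left out in turn, with adjusted p of at most 2.76e-05. NRG1 has many annotated transcripts, and several other genes are annotated within its bounds. Of those listed in the files, NRG1-IT3 had 0 counts in all 4 libraries. Which neuregulin isoform the reads come from cannot be read from counts per gene, and in bulk RNA more cells that express NRG1 and more RNA per cell cannot be told apart.

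The genes with a profile most like that of NRG1 were sought by the Euclidean distance of log2-CPM over the 4 libraries, each gene centered on its own mean. AMER1, SPNS2 and HTR7 were the nearest, at distances of 0.04, 0.10 and 0.10. AMER1, a regulator gene of Wnt signaling, had normalized counts of 31.4 and 35.4 at 4 h and 90.0 and 82.0 at 8 h. SPNS2, the gene of a sphingosine 1-phosphate transporter, had 115 and 139 at 4 h and 341 and 282 at 8 h. HTR7, a serotonin receptor gene, had 11.7 and 12.7 at 4 h and 33.8 and 32.3 at 8 h. With 4 libraries in 2 groups, this likeness says mainly that the log2FC was of similar size, between 1.30 and 1.43.

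HBEGF, the gene of heparin-binding EGF-like growth factor, carried the most counts of any ligand. In normalized counts it measured 2051 and 2113 at the earlier time and 2014 and 1742 at the later one. Replicate 2 at 8 h was the lowest, and replicate 1 at 8 h lay close to the 4 h values. The change did not pass, at −0.15 ± 0.08 (log2FC ± standard error, edgeR adjusted p = 0.167). Without 8 h replicate 1, which leaves the lower 8 h library alone, the log2FC was −0.26 and the adjusted p 0.0146, and without 8 h replicate 2 they were −0.048 and 0.703. HBEGF did pass with library size in place of TMM (log2FC −0.25, adjusted p = 0.0213) and after a loess correction by abundance (log2FC −0.27, adjusted p = 0.0156).

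TGFA, the gene of transforming growth factor alpha, was present at a low level. It had normalized counts of 52.0 and 48.0 at 4 h and 68.5 and 74.6 at 8 h, from 53 to 67 reads per library. Both 8 h values were higher, by 0.51 ± 0.23 (log2FC ± standard error, edgeR adjusted p = 0.0814), which did not pass at this depth. It passed only with the loess correction (log2FC 0.67, adjusted p = 0.0242) among the alternatives run, and its adjusted p went up to 0.287 with DESeq2.

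Within a library, the ratio of 2 genes does not depend on scaling. HBEGF had 10.8 and 9.92 times the counts of NRG1 at 4 h, and 3.77 and 3.70 times at 8 h. The 8 h ratios lay far below the 4 h ratios, with little spread between replicates. For comparison between genes, CPM values were divided by the number of 75-base exonic windows with a single position, in kilobases. On this length-scaled level HBEGF stood at 112 and 115 CPM per kilobase at 4 h and at 110 and 94.9 at 8 h. NRG1 stood at 1.78 and 2.00 at 4 h and at 5.01 and 4.42 at 8 h. HBEGF thus made up 96.9% and 97.0% of the summed level of the 6 ligands other than AREG at 4 h and 93.9% and 93.5% at 8 h, and NRG1 1.54% and 1.68% at 4 h and 4.29% and 4.36% at 8 h. TGFA followed at 1.14% to 1.27% at 4 h and 1.66% to 2.07% at 8 h. These levels use 1 transcript model per gene, and the authors' gene annotation is not given in the sources used here.

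**Figure D3:**
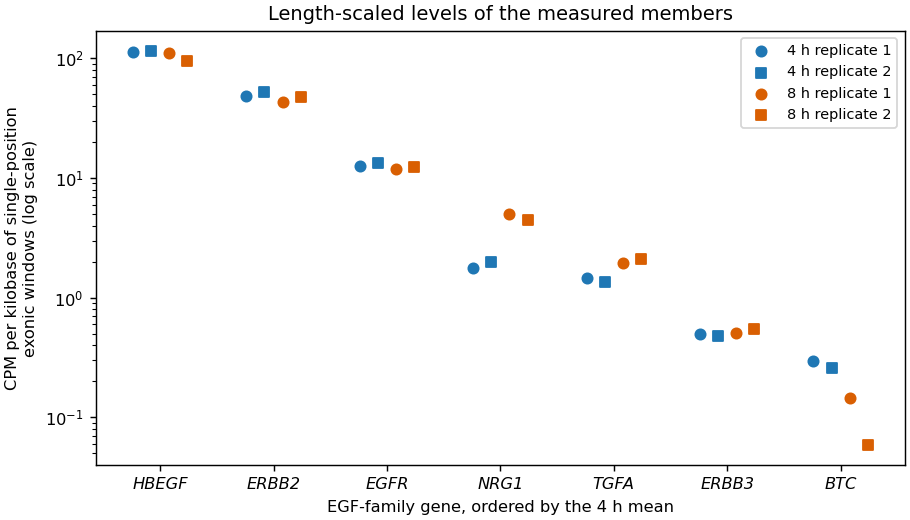
CPM per kilobase of exonic windows with a single position, on a log scale (y axis), for the 7 members with a count at both times (x axis, ordered by the 4 h mean), with 1 point per library, blue at 4 h and orange at 8 h. HBEGF and ERBB2 stand highest, at 43.3 or more, and NRG1 moves from 1.78 and 2.00 to 5.01 and 4.42.

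In order of length-scaled level, the members ran HBEGF, ERBB2, EGFR, NRG1, TGFA, ERBB3 and BTC, then EREG with its 2 counts and EPGN with none. The order of the first 7 was the same at both times, and no neighbors among them overlapped between libraries of a time. The closest pair, taken as a ratio, was NRG1 and TGFA at 4 h, where the lower NRG1 value was 1.78 and the higher TGFA value 1.47 CPM per kilobase. EREG and EPGN could not be told apart. Using all exonic length, or windows that stay single with up to 2 mismatches (an alternative added after seeing the data), moved no member's mean rank beyond the spread of its ranks over libraries. Both alternatives keep the same transcript model of each gene, so they cannot show how the order depends on that model. The model of NRG1 has 11983 exonic and 1920 coding bases, and that of TGFA has 4117 and 480.

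None of the receptor genes passed the test. In edgeR, 0 of the 3 had an adjusted p below 0.05 and 0 an unadjusted p below 0.05, and Limma-Voom and DESeq2 also called 0. EGFR, the receptor for most of these ligands, had normalized counts of 949 and 1014 at 4 h and 894 and 936 at 8 h (log2FC −0.10, standard error 0.09, edgeR adjusted p = 0.366). Its lower 4 h value and its higher 8 h value were closer together than the 4 h replicates were. ERBB2, the partner receptor without a ligand, had 1208 and 1290 at 4 h and 1075 and 1190 at 8 h (log2FC −0.14, standard error 0.09, edgeR adjusted p = 0.196). Under scaling by library size and under the loess correction, its log2FC was −0.25 in both cases, with adjusted p of 0.0247 and 0.0289. ERBB2 overlaps PGAP3 and MIEN1 on the opposite strand, and the use of strand in counting is not given in the sources used here. PGAP3 had 173 to 201 counts per library and MIEN1 324 to 438, against 958 to 1423 of ERBB2. MIEN1 rose (log2FC 0.43, edgeR adjusted p = 0.00694), opposite in sign to the log2FC of ERBB2, and PGAP3 did not pass (log2FC 0.20, adjusted p = 0.333). The part of reads shared between these genes in the ERBB2 values was not tested. ERBB3, a receptor of NRG1, had only 15 to 19 counts per library, which gave 17.1 and 16.3 normalized counts at 4 h, then 17.4 and 18.6 at 8 h (log2FC 0.11, standard error 0.38, edgeR adjusted p = 0.852). The interval of 2 standard errors around this change ran from −0.66 to 0.87, so smaller changes of ERBB3 in either direction were not detectable at this depth.

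The balance between the 2 abundant receptors moved little. ERBB2 had 1.27 times the counts of EGFR in both 4 h libraries, and 1.20 and 1.27 times at 8 h. On the length-scaled level, ERBB2 made up 77.4% to 78.2% of the sum over EGFR, ERBB2, ERBB3 and ERBB4 in every library, and EGFR 20.1% to 21.1%. The share of ERBB4 was 0.956% and 0.990% at 4 h, then 0.550% and 0.736% at 8 h. The share of ERBB3 was 0.799% and 0.717% at 4 h, then 0.908% and 0.888% at 8 h. ERBB4 thus stood above ERBB3 in both 4 h libraries and below it in both 8 h libraries. No test of this order was run. With all exonic length it did not hold in 8 h replicate 2, where ERBB4 stood at 0.375 and ERBB3 at 0.346 CPM per kilobase. The receptors that bind neuregulin were thus the least abundant of the 4 at both times. The shares of ERBB2 and EGFR also depend on the length used. With all exonic length, their 4 h means were 28.6 and 10.3 CPM per kilobase, in place of 50.3 and 13.0 with single-position windows.

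Family genes outside the 10 were mostly scarce. ERBB4, the fourth receptor, had normalized counts of 57.4 and 63.5 at 4 h and 29.7 and 43.5 at 8 h. It fell in edgeR (log2FC −0.74, standard error 0.26, adjusted p = 0.0316), but not in DESeq2 (adjusted p = 0.173) nor with the loess correction (adjusted p = 0.0984). The call was also lost without 4 h replicate 1 (adjusted p = 0.0874), without 4 h replicate 2 (adjusted p = 0.176) and without 8 h replicate 1 (log2FC −0.47, adjusted p = 0.236). EGF itself had 16 to 29 counts per library (log2FC −0.40, adjusted p = 0.396). NRG2 had 2 to 14 counts, with a log2FC of −0.57 (adjusted p = 0.468) that turned to 0.055 without 8 h replicate 2. NRG3 had 0 counts in all 4 libraries and NRG4 had 1 count in 1 library.

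**Figure D4:**
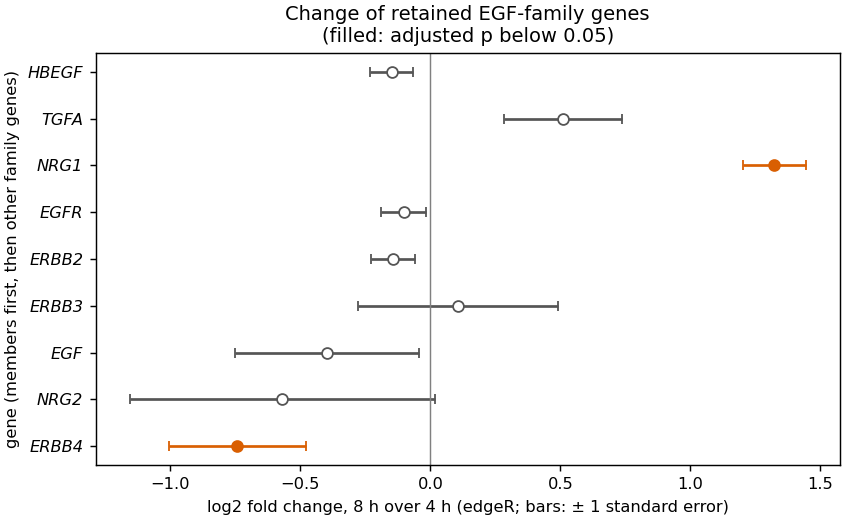
Log2FC of 8 h over 4 h from edgeR (x axis, bars ± 1 standard error) for the 6 retained members and 3 further family genes (y axis), filled orange where the adjusted p was below 0.05. NRG1 lies at 1.32 and ERBB4 at −0.74, and the bars of the scarce genes ERBB3, EGF and NRG2 are the widest.

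Genes that act on these ligands and receptors were taken from 6 lists with 63 genes, of which 62 were retained. Over all of them 19 rose and 7 fell, a share of 41.9% called against 38.8% of all retained genes, and the median log2FC was 0.09 against 0.00 for all retained genes. Of all retained genes, 19.9% were called higher and 18.8% lower at 8 h. The share called was 20% for ligand shedding, 40% for receptor adaptors and 36.4% for the RAS-MAPK core. It was 37.5% for PI3K-AKT, 61.5% for receptor restraint and 50% for receptor trafficking. The lists are described by these counts and shares only, without a test of a list.

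The list of receptor restraint held 14 genes grouped here as limits on these receptors, and the role of each product was not tested. Of its 13 retained genes, 6 rose, 2 fell and 5 did not pass. Its median log2FC was 0.15. The gene that moved most was ERRFI1 (also called MIG6), which encodes an inhibitor that binds the kinase domain of EGFR. From 4428 and 3937 normalized counts at 4 h it went to 1864 and 1607 at 8 h. ERRFI1 fell 2.41-fold (log2FC −1.27, standard error 0.09, edgeR adjusted p = 2.5e-09), with both 8 h libraries far below both 4 h libraries. Within a library it had 4.67 and 3.88 times the counts of EGFR at 4 h, and 2.09 and 1.72 times at 8 h. LRIG1, which encodes a membrane protein that promotes receptor degradation, also fell (log2FC −0.40, standard error 0.08, edgeR adjusted p = 0.000363). Its relative LRIG2 rose (log2FC 0.82, standard error 0.19, edgeR adjusted p = 0.00176), as did CBLB, which encodes a ubiquitin ligase of activated receptors (log2FC 0.49, standard error 0.11, edgeR adjusted p = 0.00112). The other 4 genes of this list that rose had log2FC of 0.38 to 0.48. The count of 8 called genes stayed at 8 with each library left out in turn.

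In the list of ligand shedding, 10 genes of proteases and their partners, 1 gene rose, 1 fell and 8 did not pass. ADAM17, the main protease that releases TGFA, AREG and HBEGF, had normalized counts of 529 and 604 at 4 h and 778 and 796 at 8 h. It rose 1.39-fold (log2FC 0.47, standard error 0.10, edgeR adjusted p = 0.00065), and its adjusted p was at most 0.0359 with 1 library left out. ADAM10, a related protease, had a log2FC of −0.13 (edgeR adjusted p = 0.263), and the ratio of ADAM17 to ADAM10 counts went from 0.426 and 0.545 at 4 h to 0.777 and 0.695 at 8 h. ADAM10 is set beside ADAM17 although it lies outside the rule for named genes. ADAM19, which can cut neuregulin precursors, fell (log2FC −0.41, standard error 0.09, edgeR adjusted p = 0.00099).

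Among 10 genes of receptor adaptors, 3 rose, 1 fell and 6 did not pass. GAB2, which encodes a docking protein that recruits PI3K, had normalized counts of 704 and 784 at 4 h and 1402 and 1602 at 8 h. It rose 2.02-fold (log2FC 1.01, standard error 0.09, edgeR adjusted p = 8.64e-08), with a log2FC of 0.91 to 1.11 when 1 library was left out. NCK1, an adaptor gene, rose by less (log2FC 0.31, standard error 0.12, edgeR adjusted p = 0.0423), a call lost with DESeq2 (adjusted p = 0.154), under library-size scaling (0.178), and without 4 h replicate 1 (0.0769), 4 h replicate 2 (0.283) or 8 h replicate 1 (0.150). PLCG1, the gene of a phospholipase that binds EGFR, fell (log2FC −0.44, standard error 0.09, edgeR adjusted p = 0.000741). The number of adaptor genes called went from 4 to 2 without either of the 4 h replicates.

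In the RAS-MAPK core, 3 of 11 genes rose, 1 fell and 7 did not pass. HRAS, which encodes a small GTPase at the head of this cascade, rose (log2FC 0.45, standard error 0.11, edgeR adjusted p = 0.00213). The kinase gene MAP2K2 rose (log2FC 0.49, standard error 0.10, edgeR adjusted p = 0.000713), with a log2FC of 0.32 without 8 h replicate 2 and 0.64 without 8 h replicate 1. Without 4 h replicate 1, the adjusted p of HRAS was 0.0760 and the number of genes called fell from 4 to 2.

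In the PI3K-AKT list, 1 of 8 genes rose, 2 fell and 5 did not pass. The catalytic subunit gene PIK3CB and the regulatory subunit gene PIK3R1 fell, with log2FC of −0.59 (standard error 0.14, edgeR adjusted p = 0.00248) and −0.60 (standard error 0.15, edgeR adjusted p = 0.00375). Without 4 h replicate 1 the adjusted p of PIK3CB and PIK3R1 was 0.0532 and 0.0507, and the number of genes called fell from 3 to 1.

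Of 10 genes of receptor trafficking, 5 rose, 0 fell and 5 did not pass, beside 19.9% higher and 18.8% lower among all retained genes. In this list 0 genes had a lower level at an unadjusted p below 0.05 in edgeR or a fall in Limma-Voom or DESeq2. STAM, which sorts receptors on endosomes, had the largest rise of these (log2FC 0.69, standard error 0.10, edgeR adjusted p = 2.04e-05), followed by RAB5A, of early endosomes (log2FC 0.49, standard error 0.10, edgeR adjusted p = 0.000544). Under library-size scaling 3 of the 5 were called, and without 4 h replicate 2 also 3.

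**Figure D5:**
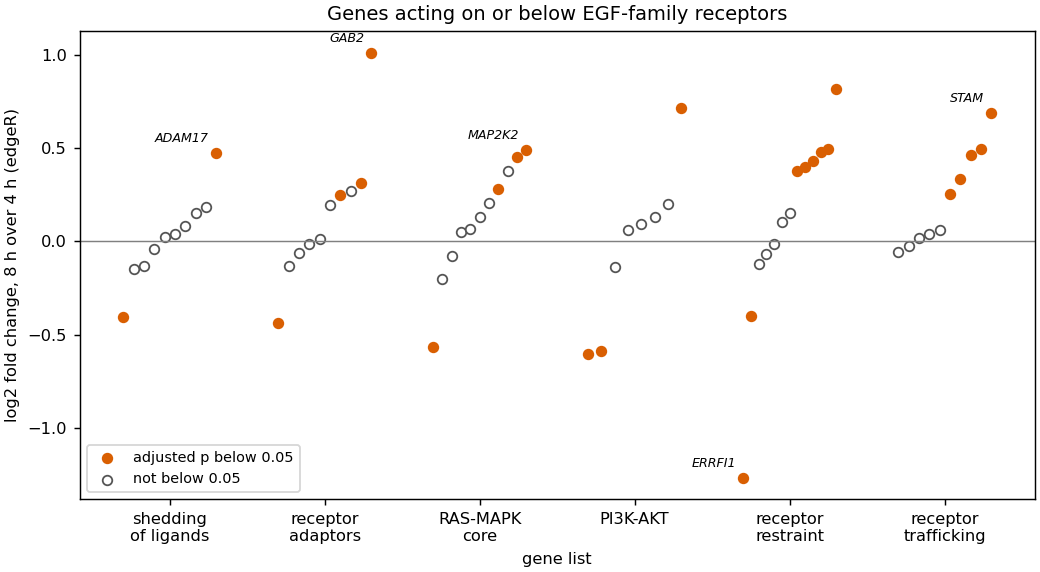
Log2FC of 8 h over 4 h from edgeR (y axis) for the 62 retained genes of 6 lists (x axis), with 1 point per gene, filled orange where the adjusted p was below 0.05. GAB2 at 1.01 and ERRFI1 at −1.27 stand apart, and the other genes lie between −0.60 and 0.82.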

How the data were processed

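RNA-Seq was performed on polyadenylated RNA of hTERT RPE-1 cells after 4 h or 8 h of 200 μM merbarone, with TruSeq Stranded mRNA libraries from 150 ng of total RNA. Samples were grouped by their titles. The authors mapped single reads of 75 bases to hg19 with Bowtie 1.2.0 (version from the submitters' processing notes), kept reads with 1 position, and the deposited values are unnormalized counts of reads on each gene, 1 file per library. Bowtie loses reads across splice junctions. The gene annotation, counting tool and use of strand are not given in the sources used here.

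Of 23459 identifiers, 23308 were given a symbol with RefSeq (GRCh38.p14) and positions were taken from GENCODE on GRCh37. Genes above 1 CPM in at least 2 libraries were scaled by TMM and tested with edgeR 4.0.16 (glmQLFit, R 4.3.3), time being the only term, with p adjusted over 12559 genes. The standard error is the size of the log2FC divided by the square root of F. Normalized counts are scaled to the mean effective library size. Limma-Voom (limma 3.58.1), DESeq2 1.42.0, other scalings and filters, a loess correction, a replicate block and leaving out libraries were alternatives. The tests were tried on simulated counts of 12559 genes, where edgeR and Limma-Voom each made 14 false calls and DESeq2 made 2. Of 66 genes changed by an absolute log2FC of 0.6, edgeR and Limma-Voom recovered 75.8% and DESeq2 54.5%. Of 68 genes changed by 1.5, these shares were 91.2% and 76.5%. Windows of 75 bases inside canonical exons were searched on both strands of GRCh37.

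Members and lists were chosen with earlier results of these data known. All 10 members and the 5 other family genes are named. Named pathway genes are up to 2 per direction and list, with the largest changes among called genes that average 100 or more normalized counts at the higher time. Some genes that this rule names are not reported here. Profile neighbors are the 3 nearest genes of each called member that reaches this level.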

Additional observations from a re-analysis of the deposited data

How the results depend on the processing

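The rise of NRG1 kept its direction and an adjusted p of at most 2.76e-05 under every test, scaling, filter, block and left-out library tried. At an adjusted p below 0.05, ERRFI1, GAB2 and ADAM17 also kept their direction and call in all of these. The cause of the shifts below was not tested. Under library-size scaling the median change of all genes was −0.11 in place of 0.00 (log2FC), with 1698 higher and 3289 lower genes against 2500 and 2367. That scaling called 3 members (HBEGF and ERBB2, each with a log2FC of −0.25, besides NRG1) and 3 trafficking genes. The loess correction called 4 members (HBEGF −0.27, TGFA 0.67, ERBB2 −0.25 and NRG1) and 0 of the other family genes. DESeq2 gave 1503 lower genes and also called 0 of the other family genes. With an absolute log2FC above 1 as well, 669 of 4867 genes passed, 182 higher and 487 lower, with 1 adaptor and 1 restraint gene and 0 in each of the shedding, RAS-MAPK, PI3K-AKT, trafficking and other family lists. With 1 library left out, the lone library of a time is assumed to vary like the others, and there were 3114 to 4828 called genes, 1605 to 2534 higher and 1509 to 2294 lower. Called members then numbered 1 to 2, adaptors 2 to 4, RAS-MAPK genes 2 to 4, PI3K-AKT genes 1 to 3, trafficking genes 3 to 5 and other family genes 0 to 1, with HBEGF at −0.26 to −0.048 and NRG2 at −2.07 to 0.055. The labels do not say whether same-numbered libraries share more than a number. Their deviations had a correlation of 0.05 over all retained genes and 0.12 over 9379 abundant ones. With 1 replicate difference per time, these values cannot decide it. With the replicate block 5493 genes were called, 2829 higher and 2664 lower, and 1 member, NRG1, with a log2FC of 1.32. Depth limits ERBB3, BTC and EREG, with at most 19 counts in a library.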
